A study of Mus musculus with 12 samples.

Results

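Messenger RNA levels of 10 genes of bone morphogenetic protein (BMP) signalling were examined in kidneys of mouse embryos carrying mutations in Hoxa and Hoxc genes. The genes were the ligands Bmp2, Bmp4, Bmp5 and Bmp7, the secreted antagonist Grem1, the secreted modulator Bmper, and the targets Id1, Id2, Id3 and Id4. They were taken by gene symbol from a list, and each symbol was found, giving 10 of the 36186 genes in the deposited counts. RNA from whole kidneys at E18.5 was sequenced in 12 libraries, 3 for each of 4 genotypes by label, from mice of mixed background. The control group was wild type (Wt). The group AkCh was homozygous mutant for Hoxa9,10,11 and heterozygous for Hoxc9,10,11. The group AhCk was heterozygous for the Hoxa genes and homozygous mutant for the Hoxc genes. The group AkCk was, by its labels, homozygous mutant for all 6 genes. The text of the study describes its sequenced mutants as retaining wild type alleles of Hoxa11, as Hoxa11+/- or Hoxa11+/+. It reports no detectable kidneys at E18.5 in mutants homozygous for all 6 genes, so for Hoxa11 the AkCk label conflicts with that text. The Hoxa11 alleles of each single library are not given by the labels, and AkCk may mix Hoxa11 genotypes. The mutations are frameshifts in the coding sequence, and by the study's supplement each Hoxc allele also lacks part of its first exon. By their labels the AhCk libraries came from a different sequencing run than the 9 others, so that for AhCk the run and the genotype cannot be told apart. The labels number each library but name no litters, so p-values measure the spread between these libraries only.

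BMPs are secreted ligands that bind pairs of serine/threonine kinase receptors at the cell surface. The activated receptors phosphorylate Smad proteins, which enter the nucleus with Smad4 and bind target genes, of which the Id genes are among the most direct. Id proteins have no DNA-binding region and hold E proteins in inactive pairs, and extracellular antagonists such as Gremlin limit how much ligand reaches the receptors. In the developing kidney Bmp7 maintains nephron progenitors of the cap mesenchyme, Bmp4 is made by stromal cells around the ureter, and Gremlin is needed for outgrowth of the ureteric bud.

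Total expected counts per library ranged from 28616877 to 47067903, with a median of 39328488. Levels are given as CPM, counts-per-million values after TMM scaling over the 12 libraries, and differences as log2 fold changes of the first group named over the second. At the lowest depth, 3 counts correspond to 0.116 CPM, and reads without molecular identifiers make this a limit for counting error only. All 10 genes passed the filter on low counts in each of the 4 comparisons, and the lowest value among them was 14 counts of Grem1 in AkCh 20. The targeted Hox genes were transcribed in every group. Hoxa10 had 125, 152 and 165 CPM in Wt 30, 37 and 55, 153, 103 and 107 in AkCh 20, 31 and 33, 113, 104 and 114 in AhCk 38, 110 and AhCk_115, and 100.3, 104 and 112 in AkCk 24, 27 and 29. Hoxc10 had 50.2, 58.8 and 66.9 CPM in the Wt libraries, 120.7, 45.3 and 41.6 in AkCh, 32.1, 36.6 and 51.6 in AhCk, and 37.8, 29.1 and 35.8 in AkCk, in the same order. Each AkCk library was below each Wt library for both genes. In AkCk against Wt, Hoxc10 differed by -0.78 on the log2 scale (standard error 0.14) and Hoxa10 by -0.49 (standard error 0.11), with adjusted p of 0.0127 and 0.0270 (edgeR, Benjamini-Hochberg). Hoxa10 was past the threshold of 0.05 in 2 of 6 fits on 5 libraries, those without Wt 30 or AkCk 29. Hoxc10 was past it in 5 of the 6, the exception being the fit without Wt 37 (adjusted p = 0.0583, edgeR with Benjamini-Hochberg adjustment). Of 9 alternatives, 5 for Hoxa10 and 6 for Hoxc10 were past it. With Xist as a covariate over all 12 libraries their log2 fold changes were -0.35 and -0.38, with adjusted p of 0.206 and 0.532 by edgeR with Benjamini-Hochberg adjustment. That fit holds AkCh 20, which lacked Xist and had the highest Hoxc10 of the 12 libraries, and was not run without this library.

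Over the 12 libraries Hoxa9 ranged from 23.96 to 40.8 CPM, Hoxa11 from 37.1 to 61.5, Hoxc9 from 9.16 to 32.7 and Hoxc11 from 0.892 to 2.94. None of these 4 was past the threshold in AkCk against Wt. By edgeR with Benjamini-Hochberg adjustment, their adjusted p-values were 0.879 for Hoxa9, 0.252 for Hoxa11, 0.230 for Hoxc9 and 0.103 for Hoxc11. For Hoxc9 and Hoxc11, too, each AkCk library was below each Wt library. The log2 fold changes of these 2 genes were -0.27 (95% interval -0.61 to 0.06) and -0.65 (95% interval -1.2 to -0.11). A frameshift need not lower the transcript, so these levels do not check the genotype labels. Deleted exon sequence gives no reads, and its part in the lower counts of the Hoxc genes was not tested.

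The library AkCh 20 stood apart from the other 11 in all genes. Its median absolute log2 difference from the 12-library median of each gene was 0.411, against 0.0914 to 0.214 in the others. It was the highest library for 4857 and the lowest for 4719 of 16260 genes. Genes in the lowest 25% by exon length had a median log2 difference of 0.35 in it, and those in the top 25% one of -0.26. Among the 10 genes it was above all other libraries for Bmp2, Bmp4, Id1, Id2, Id3 and Id4, and below all for Bmper. For comparisons with AkCh, the numbers of genes past the threshold by edgeR are therefore given with and without it. Sex also differed between the libraries. Xist, the RNA that coats the inactive X chromosome in females, was at 60.1 to 336 CPM in AkCh 31 and 33, AhCk 110 and AkCk 27 and 29, and at most 0.138 CPM in the other 7 libraries, which had 54.2 to 93.6 CPM of the Y-linked gene Ddx3y. All 3 Wt libraries were thus without Xist.

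Per kilobase of exon, the mean level over the 12 libraries was highest for Id3 (129 CPM per kb), followed by Id2 (89.1), Id1 (78.1), Bmp7 (20.2), Bmp4 (14.7), Id4 (13.9), Bmper (4.64), Bmp2 (3.46), Bmp5 (0.660) and Grem1 (0.277). The ranges over the libraries separated Id1 from Bmp7, Bmp7 from Bmp4, Id4 from Bmper and Bmp2 from Bmp5. Other neighbours in this order overlapped. For Bmp7 and Bmp4 the gap was small, with lowest and highest values of 16.69 and 16.65 CPM per kb. Of the summed level of the 4 ligands per kilobase, Bmp7 made up 44.6% to 58.7% and Bmp4 34.0% to 40.7% in each library.

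**Figure D1:**
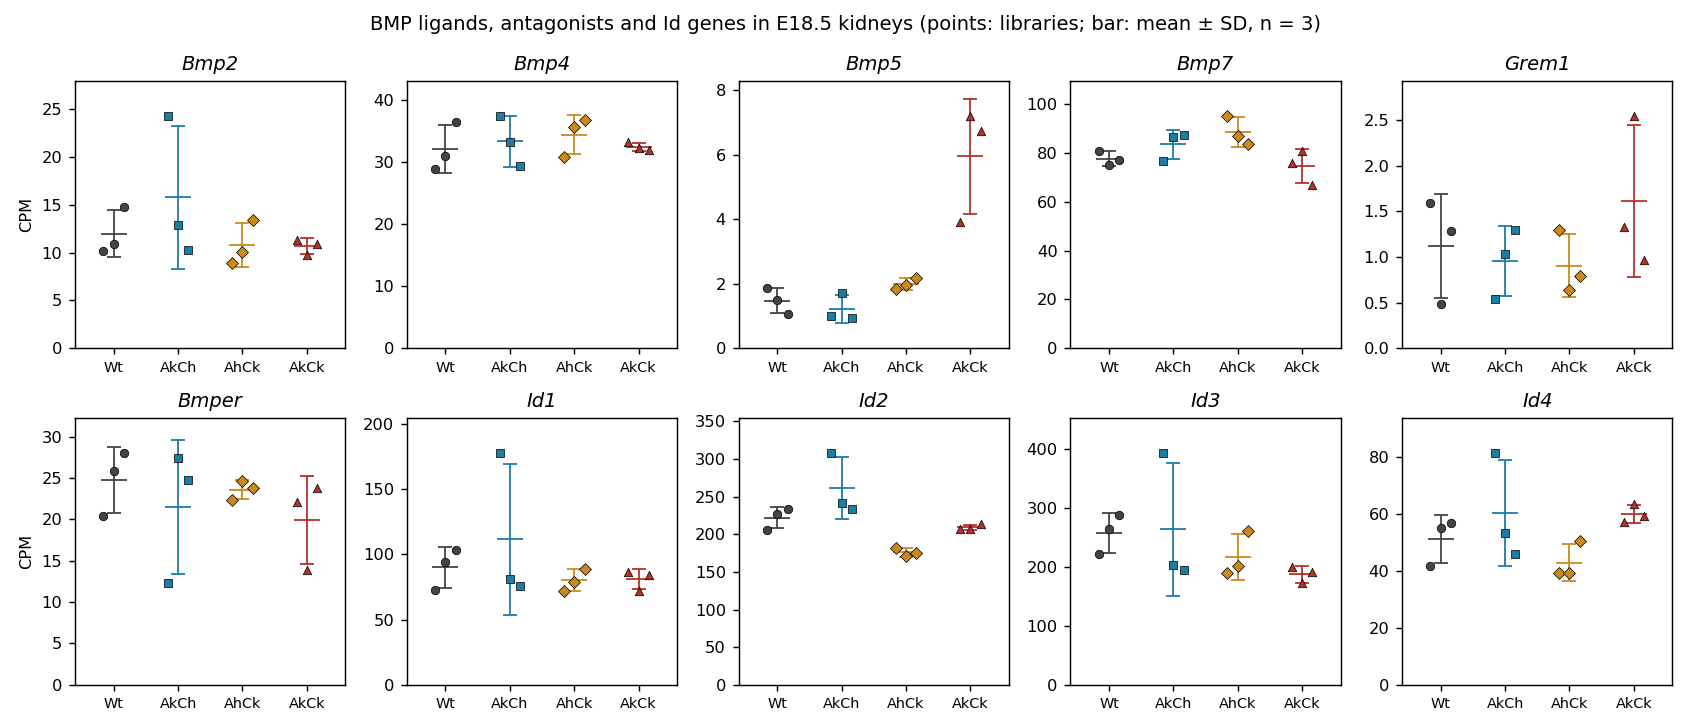
Levels of the 10 genes in CPM (vertical axis) in the 3 libraries of each genotype (horizontal axis); points are libraries, and the long bar with caps is the mean ± SD. Bmp5 was at 3.92 to 7.21 CPM in AkCk and at most 2.18 CPM in the other 9 libraries, and the high AkCh points of Bmp2, Id1, Id3 and Id4 are all from AkCh 20.

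In AkCk against Wt, 2 of the 10 genes passed the threshold, Bmp5 upward and Id3 downward, where 13.7% of the 15839 genes tested passed (6.31% higher and 7.4% lower). In bulk tissue, fewer cells that express a gene and less RNA per cell cannot be told apart, for these and all values that follow. In 3 of the 10 genes the AkCk and Wt libraries did not overlap, where this held for 38.1% of the genes tested (17.3% with AkCk above and 20.8% with AkCk below). These were Bmp5 and Id4, with AkCk above, and Id3, with AkCk below. Over all genes, 999 were higher and 1172 lower, 742 and 1649 with library size only. The total of 2171 moved to 3386 without Wt 30, 535 without Wt 37, 633 without Wt 55, 793 without AkCk 24 and 1101 without AkCk 27. The median log2 fold change of the 10 genes was -0.07, and that of all genes tested was -0.01. Shares of this size are close to those over all genes and are no result about the 10 genes as a group.

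Bmp5, a ligand of the same subgroup as Bmp7, lies on chromosome 9 of mm10 from 75775365 to 75900316. It had 1.86, 1.4992 and 1.06 CPM in Wt 30, 37 and 55, 1.00, 1.71 and 0.9235 CPM in AkCh 20, 31 and 33, and 1.82, 1.96 and 2.18 CPM in AhCk 38, 110 and AhCk_115. In AkCk 24, 27 and 29 it had 3.92, 7.21 and 6.73 CPM. All 3 AkCk libraries were thus above all 9 others, with AkCk 24 the lowest of the 3. Group means were 5.95 ± 1.78 CPM in AkCk and 1.47 ± 0.397 CPM in Wt (SD, n = 3 each). The log2 fold change was 2.01 (standard error 0.30, 95% interval 1.31 to 2.72), a fold of 4.04, with an adjusted p of 0.00799 in the edgeR quasi-likelihood fit, adjusted after Benjamini-Hochberg. All 9 alternative analyses (1.77 to 2.07) and all 6 fits on 5 libraries (1.83 to 2.24) kept it past the threshold. AkCk 24 lacked Xist, as did the Wt libraries, while AkCk 27 and 29 had it. The fit of all 12 libraries with Xist as a covariate, which holds AkCh 20, is among the 9 alternatives. The part of sex in the difference of Bmp5 was not tested otherwise. The Bmp5 counts were small, from 43 to 70 per Wt library and from 150 to 283 per AkCk library.

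Bmp5 was also higher in AkCk than in AkCh, by 2.30 on the log2 scale (standard error 0.37, 95% interval 1.42 to 3.18, unadjusted p = 0.00052 by edgeR's quasi-likelihood test). Its adjusted p was 0.137 with Benjamini-Hochberg adjustment, which missed the threshold. Without AkCh 20 the log2 fold change was 2.19, with an adjusted p of 0.0339, and over 9 alternatives the edgeR, DESeq2 and limma adjusted p-values ran from 1.51e-06 to 0.145, with 4 past the threshold. In AhCk against Wt it was 0.44 (95% interval -0.14 to 1.03) and in AkCh against Wt -0.27 (95% interval -1.11 to 0.57, and -0.16 without AkCh 20), neither past the threshold, with adjusted p of 0.352 and 0.9999 by edgeR with Benjamini-Hochberg adjustment. The level of Bmp5 remained low beside the other ligands. Per kilobase it was 2.58%, 4.596% and 4.70% of the 4 ligands in the AkCk libraries and from 0.583% to 1.305% in the other 9.

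The promoters of Bmp5 and Id3, the genes that passed the threshold in AkCk against Wt, are shown from 250 bases before to 50 bases after the start of the gene. They are from a table of RefSeq promoters for GRCm38.p6, in which 7 of the 10 genes were matched, and Bmp2, Bmp7 and Id1 were not. Capitals mark matches to the Smad box CAGAC and to TTTATGG, a core sequence bound by Hox proteins of the Abd-B type, each searched on both strands. These motifs are in 49.6% and 2.75% of 32851 promoters of the same length. The GC-rich Smad motif GGCGCC, in 11.9% of promoters, was searched as well. The Bmp5 promoter is chr9:75775115-75775414 on the plus strand, with 43.3% GC, 1 match to the Smad box and 1 to the Abd-B core. The Id3 promoter is chr4:136143572-136143871 on the plus strand, with 60.0% GC and 2 matches to the Smad box. The median GC content of all promoters was 52.7%. Of the other 5 promoters, those of Grem1, Id2 and Id4 each held 1 match to GGCGCC and that of Grem1 also 2 to CAGAC. A match of letters is a description and not a binding site.
Bmp5 promoter: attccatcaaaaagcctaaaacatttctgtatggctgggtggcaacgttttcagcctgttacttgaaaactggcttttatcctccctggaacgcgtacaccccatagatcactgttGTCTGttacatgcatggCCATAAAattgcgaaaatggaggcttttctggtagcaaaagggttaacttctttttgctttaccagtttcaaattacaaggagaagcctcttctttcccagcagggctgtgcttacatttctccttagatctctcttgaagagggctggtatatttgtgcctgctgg
Id3 promoter: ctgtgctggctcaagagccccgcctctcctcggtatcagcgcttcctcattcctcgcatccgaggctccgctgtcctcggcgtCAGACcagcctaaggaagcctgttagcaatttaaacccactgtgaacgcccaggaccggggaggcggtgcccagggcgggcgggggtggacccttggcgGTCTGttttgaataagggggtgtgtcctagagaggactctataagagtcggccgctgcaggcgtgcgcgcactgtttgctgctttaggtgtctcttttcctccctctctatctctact

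Among the other ligands, Bmp7, the most abundant of the 4 per kilobase, had 81.0, 74.9 and 77.1 CPM in Wt 30, 37 and 55, 76.7, 86.8 and 87.4 in AkCh 20, 31 and 33, 95.2, 87.0 and 83.5 in AhCk 38, 110 and AhCk_115, and 75.8, 80.7 and 67.1 in AkCk 24, 27 and 29. The AhCk libraries were all above the Wt libraries, while AkCk and AkCh each overlapped Wt. The difference of AhCk over Wt was 0.20 on the log2 scale (standard error 0.07, 95% interval 0.03 to 0.37), with an unadjusted p of 0.0270 and an adjusted p of 0.181 by edgeR with Benjamini-Hochberg adjustment. In AkCk against Wt it was -0.06 (95% interval -0.26 to 0.14).

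Bmp4, the second ligand by level per kilobase, had group means of 32.1 ± 3.88 CPM in Wt, 33.3 ± 4.05 in AkCh, 34.4 ± 3.18 in AhCk and 32.4 ± 0.695 in AkCk (SD, n = 3 each). The groups overlapped, and the 95% interval of AkCk over Wt was -0.22 to 0.25 on the log2 scale. The gene overlaps the annotated span of the long noncoding gene Gm15217, which had at most 10.9 CPM. Whether their exons overlap was not examined. Since the strand used in counting is not given, reads from any shared exon sequence of the 2 genes could not be told apart. Bmp2, the remaining ligand, ranged from 8.93 to 14.8 CPM in 11 libraries and was at 24.3 CPM in AkCh 20. AkCk over Wt was -0.17 on the log2 scale (95% interval -0.54 to 0.21), and AkCh over Wt was 0.40 with AkCh 20 and -0.05 without it.

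Grem1, an antagonist that binds Bmp2, Bmp4 and Bmp7 outside the cell, had the lowest mean level of the 10 genes over the 12 libraries, with 14 to 100 counts per library, though Bmp5 was lower in Wt 55 and AkCh 33. It had 1.59, 0.484 and 1.29 CPM in Wt 30, 37 and 55, 0.541, 1.04 and 1.29 in AkCh 20, 31 and 33, 1.29, 0.634 and 0.788 in AhCk 38, 110 and AhCk_115, and 1.33, 2.55 and 0.962 in AkCk 24, 27 and 29. The groups overlapped, with AkCk 27 the highest library and Wt 37 the lowest. The 95% interval of AkCk over Wt, -0.63 to 1.70 on the log2 scale, reaches up to a 3.25-fold higher level, and the difference did not pass the threshold. Bmper, a secreted protein that binds BMPs and can raise or lower their activity, was at 20.4, 25.9 and 28.1 CPM in Wt, 12.3, 27.4 and 24.8 in AkCh, 22.3, 24.7 and 23.8 in AhCk, and 22.1, 13.8 and 23.8 in AkCk, in the same order of libraries. AkCh 20 and AkCk 27 were the low libraries, and the other 10 lay between 20.4 and 28.1 CPM. AkCk over Wt was -0.32 (95% interval -0.81 to 0.17) on the log2 scale.

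Id3, a target of BMP signalling and the most abundant of the 10 genes per kilobase, lies on chromosome 4 of mm10 from 136143822 to 136145392. It had 221, 263 and 288 CPM in Wt 30, 37 and 55, 393, 202 and 195 CPM in AkCh 20, 31 and 33, 189, 201 and 261 CPM in AhCk 38, 110 and AhCk_115, and 199, 172 and 190.25 CPM in AkCk 24, 27 and 29. All AkCk libraries were below all Wt libraries, but AkCh 33 and AhCk 38 lay within the AkCk range. Group means were 187 ± 13.98 CPM in AkCk and 257 ± 33.7 CPM in Wt (SD, n = 3 each). The log2 fold change was -0.46 (standard error 0.11, 95% interval -0.72 to -0.20), with an adjusted p of 0.0346 in the edgeR quasi-likelihood fit, adjusted after Benjamini-Hochberg. This call was less stable than that of Bmp5. It was past the threshold in 5 of 9 alternatives and in 1 of 6 fits that left out a library. Adjusted p-values by edgeR with Benjamini-Hochberg adjustment were 0.128 without Wt 37, 0.118 without Wt 55, 0.0759 without AkCk 24, 0.0922 without AkCk 27, 0.0688 without AkCk 29 and 0.0109 without Wt 30. With Xist as a covariate over all 12 libraries the log2 fold change of Id3 was -0.19, with an adjusted p of 0.678 by the same test. That fit holds AkCh 20, which lacked Xist and had the highest Id3 of the 12 libraries, and was not run without this library.

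Id2, the next of the targets by level per kilobase, had 206, 227 and 233 CPM in Wt, 309, 241 and 234 in AkCh, 182, 171 and 176 in AhCk, and 208, 207 and 213 in AkCk, in the same order of libraries. All AhCk libraries were below every library of the other groups, and AkCk overlapped Wt. AhCk over Wt was -0.33 on the log2 scale (standard error 0.07, 95% interval -0.50 to -0.15), with an adjusted p of 0.0689 by edgeR with Benjamini-Hochberg adjustment. It was past the threshold in 1 of 8 alternatives, DESeq2 with Benjamini-Hochberg adjustment (adjusted p = 0.00456), and in 1 of 6 fits on 5 libraries, that without Wt 30 (adjusted p = 0.0426 by edgeR). Its values under these alternatives lay between -0.34 and -0.18, the latter with GC and length offsets, and the highest adjusted p was 0.343 (edgeR, Benjamini-Hochberg, with Xist as a covariate). The AhCk libraries share a sequencing run that no Wt library was in.

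Id1 and Id4, the remaining targets, did not pass in any comparison. Id1 was at 72.1 to 103 CPM in 11 libraries and at 178 CPM in AkCh 20, and AkCk over Wt was -0.15 (95% interval -0.47 to 0.17) on the log2 scale. Id4 had 41.7, 54.9 and 56.9 CPM in Wt, 81.5, 53.4 and 46.0 in AkCh, 39.1, 39.2 and 50.5 in AhCk, and 57.0, 63.5 and 59.4 in AkCk. The lowest AkCk library, at 57.0 CPM, was just above the highest Wt library, at 56.9 CPM. The log2 fold change of 0.23 (95% interval -0.06 to 0.51) had an adjusted p of 0.236 by edgeR with Benjamini-Hochberg adjustment. The span of Id4 overlaps the noncoding gene A330033J07Rik, which had at most 1.70 CPM. Among the 4 Id genes per kilobase, Id3 made up 36.9% to 38.9% in AkCk, 43.8% to 44.6% in Wt and 41.8% to 47.4% in AhCk. In AkCh 31 and 33 it made up 38.2% and 38.7%, within the AkCk range, and in AkCh 20 42.2%. Id4 made up 5.18% to 6.36% in AkCk and 3.85% to 4.70% in the other 9 libraries.

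**Figure D2:**
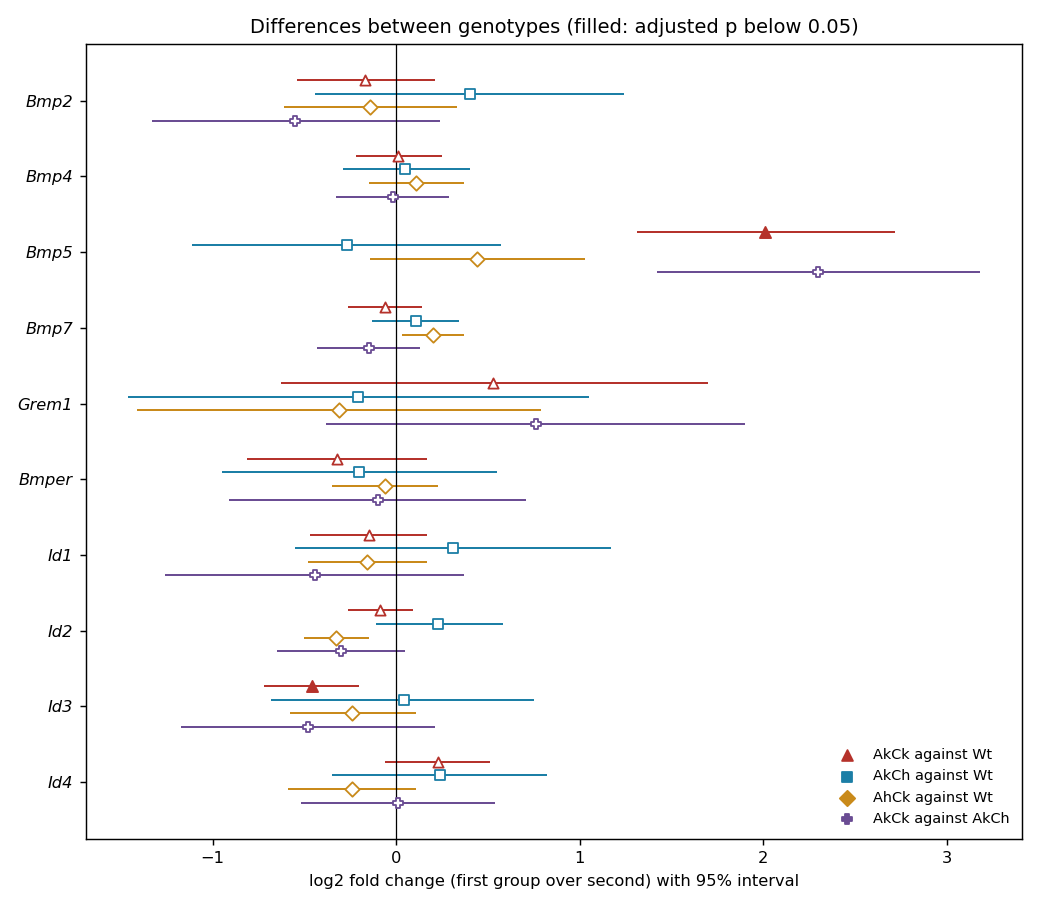
Log2 fold change of each gene in the 4 comparisons (horizontal axis; 0 is no difference), with 95% intervals from edgeR's quasi-likelihood fit; filled symbols had an adjusted p below 0.05. The filled symbols are those of Bmp5 (2.01) and Id3 (-0.46) in AkCk against Wt, and the interval of Bmp5 in AkCk against AkCh, 1.42 to 3.18, is also above 0.

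In AkCh against Wt, 0 of the 10 genes passed the threshold by edgeR's quasi-likelihood test, 0 had an unadjusted p below 0.05, and 0 passed by DESeq2 or limma. The share of all 15789 genes past the threshold was 0.0%, with 360 at an unadjusted p below 0.05, 22 by DESeq2, 1 by limma on the deposited log2 values, and 8 by edgeR without AkCh 20. The libraries did not overlap for 1 of the 10 genes, Id2, which was above Wt in AkCh, where 8.35% of the genes tested did not overlap (3.58% higher in AkCh and 4.77% lower). For Id2 the log2 fold change was 0.23 with AkCh 20 (95% interval -0.11 to 0.58) and 0.09 without it. Without that library, 0 of the 10 genes passed the threshold by edgeR, and 2, Id3 and Bmp7, had an unadjusted p below 0.05 (0.0167 and 0.0474). In the same fit 1812 of all 15967 genes had an unadjusted p below 0.05 by edgeR. For Id1 the log2 fold change was 0.31 with AkCh 20 and -0.21 without it, and those of Id3 were 0.04 and -0.38. For Id4 they were 0.24 and -0.05, for Bmper -0.20 and 0.07, for Grem1 -0.21 and 0.06, for Bmp4 0.05 and -0.04, and for Bmp7 0.11 and 0.16. The direction of Id1, Id3, Id4, Bmp2, Bmp4, Bmper and Grem1 in this comparison thus turned without AkCh 20. For Bmp4, Grem1 and Id3 it also turned without Wt 30, to -0.02, 0.13 and -0.06.

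**Figure D3:**
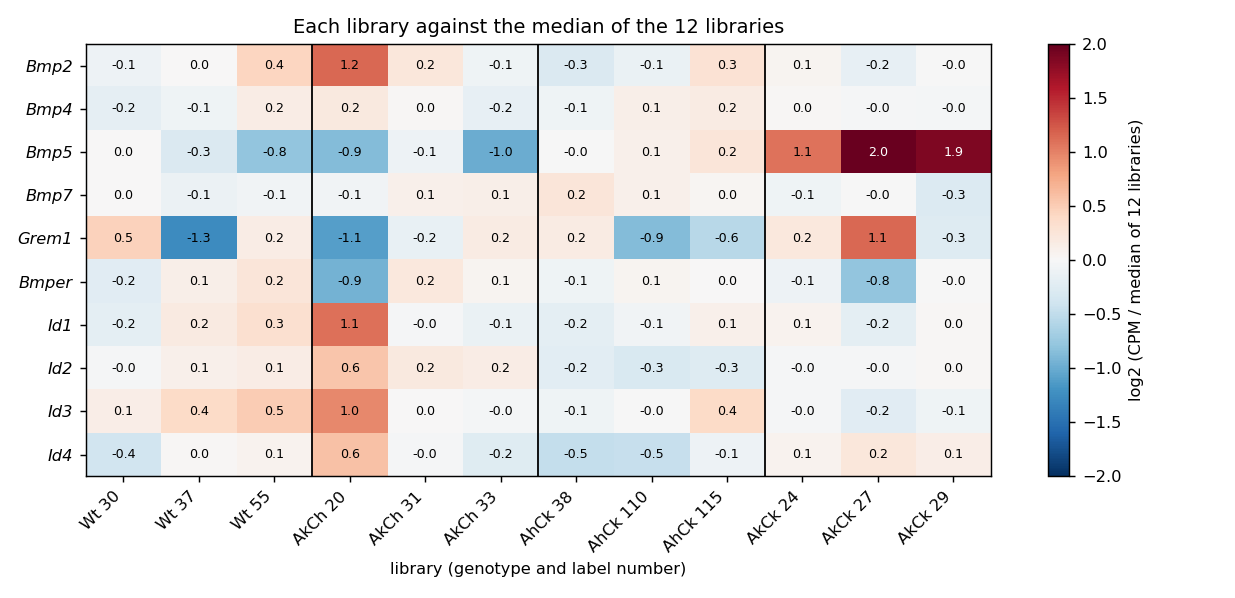
Each gene's log2 ratio to its own median over the 12 libraries (colour and printed value), with libraries as columns in their genotype groups. AkCh 20 has a positive ratio for Bmp2, Bmp4, Id1, Id2, Id3 and Id4 and a negative one for Bmp5, Bmp7, Bmper and Grem1, and the AkCk libraries stand out in Bmp5.

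In AhCk against Wt, 0 of the 10 genes passed the threshold by edgeR, where 2.36% of 15902 genes did (0.836% higher and 1.53% lower). Bmp7 and Id2 had an unadjusted p below 0.05, DESeq2 called 1 gene, Id2, and limma called 0. Of all genes, 3348 had an unadjusted p below 0.05, DESeq2 called 1318 and limma 158. Both genes, 2 of the 10, were without overlap between the libraries, Bmp7 above Wt and Id2 below it, as were 26.7% of all genes tested (11.4% above and 15.3% below). The total of 376 genes past the threshold was 60 without Wt 37, 70 without Wt 55, 63 without AhCk 110 and 99 without AhCk_115. AkCk and AkCh differ in Hoxc alleles alone by the labels. By the study's text the sequenced mutants kept wild type Hoxa11 alleles, so their comparison cannot be read as one of Hoxc alleles alone. In AkCk against AkCh, 0 of the 10 genes passed by edgeR, as did 0.0% of 15764 genes. Of all genes, 1787 had an unadjusted p below 0.05, and DESeq2 called 554 and limma 1, and without AkCh 20 edgeR called 687, of which 1, Bmp5, was among the 10 genes. With AkCh 20, 1 of the 10 genes, Bmp5, had an unadjusted p below 0.05 and was the 1 gene called by DESeq2, while limma called 0. Without AkCh 20, 2 had an unadjusted p below 0.05 by edgeR, Bmp5 (0.00087) and Id4 (0.0219), as did 3739 of all 15986 genes. Bmp5, above AkCh, and Id2, below it, did not overlap, as was so for 23.0% of genes (9.95% above and 13.1% below). Without AkCh 20 the log2 fold change of Id3 was -0.06 in place of -0.48, that of Id1 0.08 in place of -0.44, that of Id4 0.29 in place of 0.01, that of Bmp2 -0.09 in place of -0.55 and that of Bmper -0.37 in place of -0.10. The comparisons share libraries, so their values are not independent of each other. Whether a difference in AkCk differs from that in AkCh or AhCk was tested only in AkCk against AkCh.

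The rest of the pathway was examined in 6 lists with 55 genes, of which 52 were tested in AkCk against Wt. Of these, 6 passed the threshold, all upward, where 13.7% of all genes did, and the median log2 fold change was -0.00 against -0.01 over all genes. Fst, Acvrl1, Eng and Bmp6 passed in all 9 alternatives and all 6 fits that left out a library. With library size only edgeR called 5 higher and 2 lower, DESeq2 called 8 higher and 2 lower, and limma called 4, all higher. Over all 15839 genes these were 742 higher and 1649 lower with library size only, 1750 and 1630 by DESeq2, and 561 and 654 by limma. The ratio of 6 in 52 is close to the share over all genes. In AkCh against Wt and in AkCk against AkCh, 0 of 51 genes passed by edgeR, with 1 and 5 at an unadjusted p below 0.05. DESeq2 called 0 and 3 of them, Acvrl1, Eng and Fst being the 3, and limma 0 in both. Over all genes, 360 of 15789 and 1787 of 15764 had an unadjusted p below 0.05 by edgeR. DESeq2 called 22 and 554 of all genes, and limma 1 in each comparison. Without AkCh 20, edgeR called 0 of 52 in AkCh against Wt, with 3 at an unadjusted p below 0.05, and 4 of 51 in AkCk against AkCh, Acvrl1, Eng, Fst and Nbl1, all higher in AkCk. Over all genes, these 2 fits called 8 of 15967 and 687 of 15986, the latter 389 higher and 298 lower in AkCk. In the fit of AkCh against Wt, 1812 of all genes had an unadjusted p below 0.05 by edgeR.

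Of the ligands outside the 10 genes, 2 of 8 tested were higher in AkCk than in Wt, Bmp6 and Bmp3. Bmp6, another relative of Bmp7, had 12.3, 11.0 and 10.8 CPM in Wt 30, 37 and 55, 11.4, 13.2 and 15.6 in AkCh 20, 31 and 33, 20.6, 16.3 and 16.9 in AhCk 38, 110 and AhCk_115, and 18.3, 20.5 and 17.7 in AkCk 24, 27 and 29. All AkCk and AhCk libraries were above the Wt and AkCh libraries. The log2 fold change was 0.73 (standard error 0.11) in AkCk against Wt, with an adjusted p of 0.00829, and 0.67 (standard error 0.12) in AhCk against Wt, with an adjusted p of 0.0435, both by edgeR with Benjamini-Hochberg adjustment. The AhCk call was past the threshold in 4 of 8 alternatives and 1 of 6 fits without a library, that without Wt 30. Bmp3, a ligand with activity opposed to other BMPs, was at 24.5 to 29.3 CPM in Wt and 31.7 to 36.5 CPM in AkCk, 0.37 higher on the log2 scale (standard error 0.10). An adjusted p of 0.0491 was given by edgeR with Benjamini-Hochberg adjustment, and the gene was past the threshold in 3 of 9 alternatives and, of the 6 fits without a library, in that without Wt 30. Gdf2 was below 3 counts in every library and was not tested.

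Of the 10 receptors and co-receptors, 2 were higher in AkCk than in Wt, Acvrl1 and Eng, which encode a type I receptor and a co-receptor of endothelial cells. Eng, the highest of this list per kilobase, had 134, 141 and 139 CPM in Wt, 146, 146 and 147 in AkCh, 166, 163.5 and 177 in AhCk, and 187, 193 and 191 in AkCk, in the same order of libraries. The groups did not overlap in this gene, and its AkCk over Wt log2 fold change was 0.46 (standard error 0.06, edgeR with Benjamini-Hochberg adjustment, adjusted p = 0.00639). Acvrl1 had 46.7, 47.9 and 44.7 CPM in Wt, 44.8, 50.2 and 47.7 in AkCh, 57.2, 53.9 and 57.1 in AhCk and 72.6, 74.2 and 60.5 in AkCk. Its log2 fold change in AkCk against Wt was 0.57 (standard error 0.09, edgeR with Benjamini-Hochberg adjustment, adjusted p = 0.0101). The list of 6 endothelial markers, of which Cdh5 was the most abundant, summed to 716, 766 and 717 CPM in Wt and 821, 872 and 801 CPM in AkCk, with 0 of 6 past the threshold by edgeR and 3 at an unadjusted p below 0.05, as were 5131 of all 15839 genes. The part of endothelial cells in the difference of Acvrl1 and Eng was not tested. Of the 10 receptors, edgeR called 1 in AhCk against Wt, DESeq2 4, with Acvrl1 and Eng among them, and limma 0, where these tools called 376, 1318 and 158 of all 15902 genes. The gene called by edgeR was Acvr2b, a type II receptor that also binds activins, with 8.09, 6.90 and 6.78 CPM in Wt and 11.9, 13.7 and 10.8 in AhCk. Its log2 fold change was 0.75 (standard error 0.14, edgeR with Benjamini-Hochberg adjustment, adjusted p = 0.0424), past the threshold in 4 of 8 alternatives and only without Wt 30 among the 6 fits that left out a library.

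Of 18 extracellular antagonists and modulators tested, 2 were higher in AkCk than in Wt, Fst and Nbl1. Fst encodes follistatin, which binds activins and some BMPs. It had 0.928, 1.43 and 0.866 CPM in Wt 30, 37 and 55, 1.00, 1.35 and 0.580 in AkCh 20, 31 and 33, 1.56, 0.860 and 1.51 in AhCk 38, 110 and AhCk_115, and 6.40, 5.30 and 4.48 in AkCk 24, 27 and 29. As with Bmp5, all AkCk libraries were above all others. The log2 fold change against Wt was 2.32 (standard error 0.26, 95% interval 1.72 to 2.92), with an adjusted p of 0.00335 by edgeR with Benjamini-Hochberg adjustment. Against AkCh the difference was 2.47 (standard error 0.36), with an adjusted p of 0.112 by the same test, which missed the threshold, and without AkCh 20 it was 2.49, with an adjusted p of 0.02575 (edgeR, Benjamini-Hochberg). Nbl1, an antagonist of the same family as Grem1, had 23.8, 30.3 and 33.2 CPM in Wt and 48.7, 48.4 and 37.2 in AkCk, and was at 46.1 CPM in AkCh 20. Its log2 fold change in AkCk against Wt was 0.62 (standard error 0.15, edgeR with Benjamini-Hochberg adjustment, adjusted p = 0.0368), past the threshold in 6 of 9 alternatives and, of the 6 fits without a library, in those without Wt 30 or AkCk 29. Fstl1, the highest of this list per kilobase, was at 1252 CPM in AkCh 20 and 1465 to 1645 CPM in the other 11 libraries. In AhCk against Wt, 2.36% of all 15902 genes passed, 0.836% higher and 1.53% lower. Of the 18, 1 passed in this comparison, and it was lower. This was Sostdc1, a secreted antagonist of BMPs, with 263, 253 and 243 CPM in Wt and 195, 151 and 161 in AhCk. Its log2 fold change was -0.57 (standard error 0.10, edgeR with Benjamini-Hochberg adjustment, adjusted p = 0.0421), past the threshold in 4 of 8 alternatives and, of the 6 fits without a library, in that without AhCk 38.

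**Figure D4:**
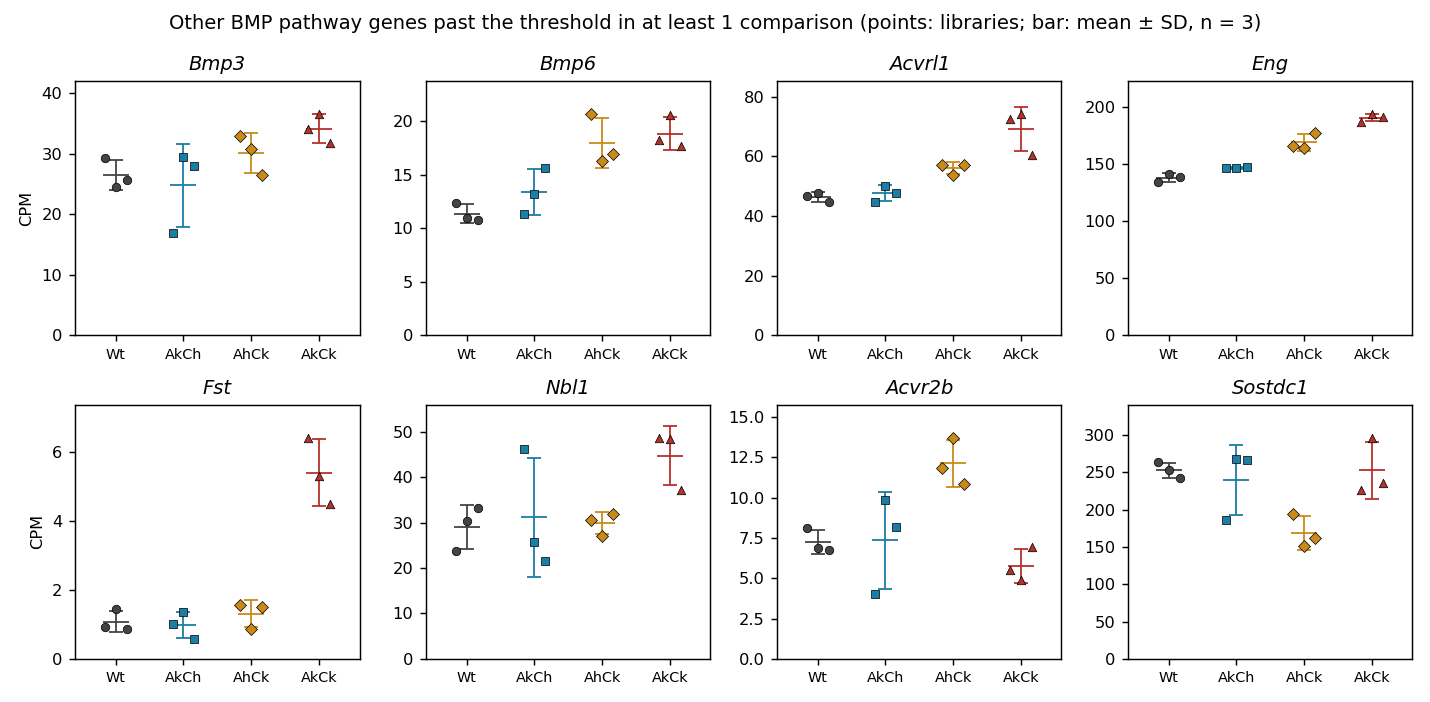
Levels in CPM (vertical axis) by genotype (horizontal axis) of the 8 other pathway genes past the threshold in at least 1 comparison; points are libraries, and the long bar with caps is the mean ± SD of 3. Fst is at 4.48 to 6.40 CPM in AkCk and at most 1.56 CPM elsewhere, while Bmp6, Sostdc1 and Acvr2b passed the threshold in AhCk against Wt, and for Sostdc1 AkCh 20, at 186 CPM, is within the AhCk range.

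In AkCk against Wt, 0 of 6 Smads and Smad ligases passed by edgeR, with 3 at an unadjusted p below 0.05, 0 by DESeq2 or limma, and 1, lower, by edgeR with library size only. Of all 15839 genes, 5131 had an unadjusted p below 0.05 in this comparison. Smad4, the highest of them per kilobase, was at 120.1 to 124 CPM in Wt and 112 to 126 CPM in AkCk. Of 7 targets outside the Id genes, 0 passed by edgeR, 1 had an unadjusted p below 0.05, DESeq2 and edgeR with library size only each called 1, Smad7, and limma called 0. Smad7, an inhibitory Smad induced by the pathway, had 48.4, 55.1 and 58.0 CPM in Wt and 39.6, 45.4 and 42.7 in AkCk, with an adjusted p of 0.0512 by edgeR with Benjamini-Hochberg adjustment. It is named after its values were seen. Hey1, the highest of the targets per kilobase, was at 54.3 to 73.3 CPM in Wt and 39.4 to 57.3 CPM in AkCk. Of the 3 E proteins that Id proteins bind, 0 passed by edgeR, with 2 at an unadjusted p below 0.05 and 0 by DESeq2 or limma, and Tcf3, the highest, was at 191 to 232 CPM in Wt and 159.6 to 193 CPM in AkCk. The median log2 fold changes were -0.19 for the Smads, -0.34 for the targets and -0.22 for the E proteins, against -0.01 for all genes. Under RLE factors and library size only their signs were the same, but these scalings move all genes alike and do not test the lists. In AhCk against Wt, these 3 lists had 0 genes past the threshold by edgeR, DESeq2 or limma, with 1, 1 and 0 at an unadjusted p below 0.05. Of all 15902 genes, edgeR called 376, DESeq2 1318 and limma 158, and 3348 had an unadjusted p below 0.05 by edgeR.

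Markers of cell types were counted in lists beside the share of all genes past the threshold in AkCk against Wt, 6.31% higher and 7.4% lower, and no list was tested as a whole. The 7 markers of stroma and fibroblasts, of which Col3a1 was the most abundant, summed to 2929, 3029.7 and 2818 CPM in Wt, 3875, 4135 and 3159 in AkCh, 3694, 4631.5 and 4985.5 in AhCk, and 7903, 9664 and 8747 in AkCk, and 6 of the 7 were higher in AkCk than in Wt by edgeR. The 7 markers of cap mesenchyme, led by Itga8, summed to 399, 501 and 526 CPM in Wt, 686, 448 and 407 in AkCh, 367, 411 and 431 in AhCk, and 235, 204 and 364 in AkCk, with 4 of 7 lower in AkCk. The 6 markers of the ureteric bud tip, led by Etv5, summed to 302, 358 and 350.0 CPM in Wt, 379, 316 and 277 in AkCh, 278, 309 and 319.6 in AhCk, and 194, 146 and 230.2 in AkCk, with 5 of 6 lower. AkCk 27, which had the highest Bmp5 and the lowest Id3 of the AkCk libraries, also had the highest stromal and the lowest cap mesenchyme and tip sums. Fst was highest in AkCk 24, which had the lowest stromal sum of the 3. The part of these cell types in the differences of Bmp5, Id3, Fst and Bmp6 was not tested. AkCh 20 had the highest cap mesenchyme sum and, for 6 nephron tubule markers led by Lrp2, the lowest, 829 CPM against 1617 to 4063 in the others. Its podocyte markers (5 genes, led by Podxl) summed to 675 CPM against 1111 to 1715.

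The other lists were collecting duct (5 genes, led by Aqp2, 435 to 677 CPM), smooth muscle (5, Acta2, 485 to 905 CPM), blood cells (4 of 5 found, Hba-a1, 278 to 2351 CPM), liver (5, Alb, 4.16 to 44.9 CPM), adrenal gland (5, Star, 3.67 to 9.92 CPM) and skeletal muscle (5, Tnnt3, 2.05 to 9.25 CPM). In AkCk against Wt, the genes past the threshold were 1 of 5 for collecting duct, lower, and 3 of 5 for podocyte, 3 of 5 for smooth muscle, 1 of 4 for blood cells, 2 of 5 for liver and 2 of 5 for skeletal muscle, higher, where 13.7% of all genes passed. For nephron tubule 0 of 6 and for adrenal gland 0 of 2 tested passed by edgeR, with 1 each at an unadjusted p below 0.05. In the adrenal list, 4 genes, Cyp11a1, Cyp21a1, Th and Dbh, were at 0 in some libraries, and in the muscle list 1, Ckm.

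Over all 12 libraries, the genes whose log2 CPM was most like Bmp5 after each was centred on its mean were S100b, Fndc1 and Ntrk3, with root mean square differences of 0.373, 0.387 and 0.389, where Bmp5 itself had a root mean square of 0.906 around its mean. S100b had 0.318, 0.185 and 0.198 CPM in Wt and 0.705, 1.02 and 0.934 in AkCk, and its lowest value, 0.0528 CPM in AkCh 33, was below the 0.0792 CPM that 3 counts correspond to there. Fndc1, an extracellular matrix gene, had 6.90, 6.92 and 3.54 CPM in Wt and 17.6, 28.7 and 23.8 in AkCk. Ntrk3, a neurotrophin receptor gene, had 3.66, 3.21 and 3.04 CPM in Wt and 12.3, 14.8 and 9.59 in AkCk. The genes most like Id3 were Gas5, Gps2 and Hist3h2ba, with 0.0815, 0.0880 and 0.0896, where Id3 had 0.325. Gas5, a host gene of small nucleolar RNAs, had 186 CPM in AkCh 20 and 81.6 to 130.4 CPM in the other 11 libraries. Like Id3, it had its highest level in AkCh 20.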

How the data were processed

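RNA from whole E18.5 kidneys was sequenced by the authors as paired reads of 75 bases (Illumina TruSeq), aligned to mm10 per the labels and filtered of reads without a unique place in the genome; the aligner, annotation release and counting strand are not given in the sources used here. The authors deposited expected counts per gene (41.0% of values not whole) and, from Strand NGS, normalized values on the log2 scale centred on each gene's median. For each of 92 symbols listed more than once, the entry with the most counts was kept under the symbol. Groups came from the sample labels.

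Here the expected counts were rounded and analysed with edgeR 4.0.16 in R 4.3.3: filterByExpr (minimum count 10, minimum total count 15), TMM factors, and the quasi-likelihood test on the 6 libraries compared, adjusted after Benjamini-Hochberg across all tested genes, at a threshold of 0.05. The Audic-Claverie test named in the study's methods has no term for spread between kidneys and was not used. Alternatives were RLE factors, library size only, no filter on low counts, a fit of all 12 libraries, a fit of the 9 libraries outside the AhCk run (not for AhCk), all 12 libraries with Xist as a covariate, DESeq2 1.42.0, limma 3.58.1 on the deposited log2 values, offsets for GC content and exon length in 20 bins, and fits without each library in turn. The fits were tested on simulated data. For pathway and Hox genes past the threshold, the same alternatives were run after their values were seen, as were the pathway counts without AkCh 20. Exon lengths were from GENCODE release 21 and identifiers from RefSeq GRCm38.p6 (32916 of 36186 genes matched by Entrez number). Python 3.11.15 with pandas 2.3.3 and matplotlib 3.10.9 was used for tables and plots.

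Genes named are the 10 genes, the targeted Hox genes, pathway genes past the threshold in any comparison or highest in their list, the most abundant gene of each cell marker list and its genes at 0, and the 3 genes most like each of the 10 genes past the threshold. Outside this rule, Smad7 was named after its values were seen, Gdf2 as not tested, Xist and Ddx3y for sex, and Gm15217 and A330033J07Rik for their overlap with genes of the 10. The 10 genes and the lists were chosen with earlier results of these data known.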

Additional observations from a re-analysis of the deposited data

Results flagged for a closer look

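The AkCh and AhCk libraries lay on opposite sides of the Wt mean of Id2 in every library. Mean levels were 261 CPM in AkCh, 176 CPM in AhCk and 222 CPM in Wt, and the log2 ratio of AkCh to AhCk was 0.57. Without AkCh 20, the AkCh mean was 237 CPM and the ratio 0.43. For Id4, every AhCk library was below and every AkCk library above the Wt mean, with 42.9 CPM in AhCk, 60.0 CPM in AkCk and 51.2 CPM in Wt, a log2 ratio of AhCk to AkCk of -0.48. Neither difference was tested, and in both the AhCk libraries came from another sequencing run, so that run and genotype cannot be told apart. The share of all genes with such a pattern was not counted, so these are no result about the genes as a group.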

How the results depend on the processing

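Of 350 values of the 10 genes under alternatives, 328 kept their direction and side of the threshold, 4 were no longer past it, 5 were newly past it and 13 changed sign; with 1 library left out, 207 of 240 kept both, 5 were no longer past it, 2 were newly past it and 26 changed sign. Bmp5 in AkCk against Wt was past the threshold in each of its 15 refits. In AkCk against Wt the genes past the threshold were 2171, and 1190 with all 12 libraries in the fit, 690 with the 9 libraries outside the AhCk run, 996 with Xist as a covariate, 3380 by DESeq2, 1215 by limma, and 535 to 3386 with 1 library left out. The 10 genes then had 1 past the threshold, Bmp5, in place of 2 with all 12 libraries, the 9 libraries, Xist as a covariate and limma, and 1 to 2 with 1 library left out. In AkCh against Wt the genes past it were 2 with all 12 libraries, 22 by DESeq2, 1 by limma and 0 to 8 with 1 library left out. In AhCk against Wt they were 149 with all 12 libraries, 134 with Xist, 121 with GC and length offsets, 1318 by DESeq2, 158 by limma and 60 to 549 with 1 left out; the 10 genes had 1, Id2, by DESeq2 and 0 to 1 with 1 left out. In AkCk against AkCh they were 1 with no filter, 540 with all 12 libraries, 181 with the 9 libraries, 640 with Xist, 2 with the offsets, 554 by DESeq2, 1 by limma and 0 to 687 with 1 left out; the 10 genes had 1, Bmp5, with all 12 libraries, the 9 libraries, Xist and DESeq2, and 0 to 1 with 1 left out. The causes were not tested.

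Log2 fold changes that changed sign were, in AkCk against Wt, those with Xist as a covariate for Bmp2 (0.13), Id1 (0.14) and Id2 (0.01), and those of Bmp4 with library size only (-0.05) and with the offsets (-0.06). In AkCh against Wt, they were Bmp4 with library size only (-0.03) and Id3 with library size only (-0.07), the offsets (-0.05) and limma (-0.04). In AhCk against Wt, Bmp2 (0.04) and Id1 (0.02) did so with Xist, and in AkCk against AkCh Id4 with all 12 libraries (-0.01) and with the 9 libraries (-0.01). With 1 library left out, ranges that crossed 0 were, in AkCk against Wt, -0.27 to 0.01 for Bmp2, -0.05 to 0.11 for Bmp4 and -0.12 to 0.01 for Bmp7. In AkCh against Wt they were -0.05 to 0.63 for Bmp2, -0.04 to 0.15 for Bmp4, -0.57 to 0.13 for Grem1, -0.41 to 0.07 for Bmper, -0.21 to 0.53 for Id1, -0.38 to 0.21 for Id3 and -0.05 to 0.40 for Id4. In AhCk against Wt they were -0.33 to 0.04 for Bmp2, -0.67 to 0.02 for Grem1 and -0.19 to 0.04 for Bmper, and in AkCk against AkCh -0.12 to 0.08 for Bmp4, -0.37 to 0.12 for Bmper, -0.67 to 0.08 for Id1 and -0.16 to 0.29 for Id4. None of these values was past the threshold, and the causes were not tested. The fit with Xist as a covariate holds AkCh 20 and was not run without this library. Counts per library were small for Grem1, 14 to 100, and Bmp5, 26 to 283. No paired analysis was possible because the groups compared share no replicate numbers.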

Other observations

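Exon lengths and the ratio of AkCh 20 to the mean of AkCh 31 and 33 were, from the shortest gene to the longest, 1.16 kb and 2.28 for Id1, 1.79 kb and 1.98 for Id3, 2.25 kb and 1.20 for Bmp4, 2.44 kb and 1.2999 for Id2, 3.555 kb and 2.10 for Bmp2, 3.85 kb and 1.64 for Id4, 4.02 kb and 0.881 for Bmp7, 4.025 kb and 0.762 for Bmp5, 4.148 kb and 0.464 for Grem1, and 4.83 kb and 0.472 for Bmper. The part of exon length in these ratios was not tested.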
